A study of Homo sapiens with 12 samples.

Results

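Regulators of G-protein signaling (RGS proteins) end signals from G-protein-coupled receptors, and 10 genes of the family are described here across scramble and linc-ADAIN KD adipocytes with and without LPS. The 10 genes, RGS2, RGS3, RGS4, RGS5, RGS7, RGS10, RGS12, RGS16, RGS17 and RGS20, are 10 of 28901 named genes in the table, and 12 other genes with an RGS name were in it too. The family was chosen from the data, because RGS4 was far lower after LPS. The LPS values of the members, and every value of RGS4, are therefore a description with no test. The tests on the 9 other members are those of linc-ADAIN KD against scramble, without and with LPS, and of whether that difference depended on LPS.

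RNA-seq was performed on 12 libraries of ASC52telo hTERT cells, a human adipose stromal line immortalized with telomerase, grown as adipocytes to day 14. Of the 4 groups, each with 3 libraries, 2 carried a scramble shRNA and 2 an shRNA against the lincRNA linc-ADAIN, and 1 group of each shRNA received LPS (100 ng/mL for 4 h). LPS is a bacterial lipopolysaccharide that activates Toll-like receptor signaling. All cells, the scramble ones included, were transduced with a lentiviral pLVX-shRNA2 vector, sorted for its ZsGreen label and differentiated in media with insulin and dexamethasone, with isobutylmethylxanthine (a phosphodiesterase inhibitor) and rosiglitazone in the first medium. The model is 1 line with 1 hairpin per arm. Per the study's methods the 3 libraries of a group are replicates within 1 experiment, so the p-values measure the spread within that experiment, which may be technical. linc-ADAIN levels were not analysed here, so the labelled knockdown was not checked. Libraries held 28.4 to 53.8 M counts on named genes (M is 1e6), and each library's values below are CPM, that is counts per 1e6 after TMM scaling.

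The cells carried most of the defining adipocyte markers, but their level moved with the groups. The 12 adipocyte markers (ADIPOQ, PLIN1, FABP4 and others) summed to 3670 to 4960 CPM in scramble, 4150 to 4870 in scramble LPS, 813 to 2150 in linc-ADAIN KD and 650 to 1370 in linc-ADAIN KD LPS, and LPL, CIDEA and LEP were under 1 CPM on average in every group. In the same order FABP4 averaged 1980, 1970, 630 and 410 CPM, ADIPOQ 920, 1160, 351 and 240 CPM, and PPARG 65.3, 71.6, 35.7 and 23.7 CPM. Replicate 3 was the lowest of its group in both KD groups (813 and 650 CPM). The 11 pericyte and smooth muscle markers summed to 1010 to 1180, 539 to 602, 350 to 394 and 212 to 262 CPM in the same order, with MYH11, DES and HIGD1B under 1 CPM. The 10 stromal markers summed to 3030 to 3110, 2740 to 2950, 2340 to 2360 and 2060 to 2280 CPM, with DLK1 and PI16 under 1 CPM in every group. Within that list DPP4 averaged 113 CPM in scramble and 475 in linc-ADAIN KD, and THY1 averaged 764 and 148 CPM. Of the 9 macrophage and leukocyte markers, PTPRC, LYZ, ITGAM, ADGRE1, CSF1R and AIF1 were under 1 CPM in every group, and the list summed to 58.2 to 62, 61.3 to 72.7, 90.2 to 119 and 82.2 to 110 CPM. Within it CD163 averaged 4.33 CPM in scramble and 68.6 in linc-ADAIN KD, and CD68 averaged 53.7 and 31.2 CPM. The 7 endothelial markers summed to 9.15 to 27.9 CPM over the 12 libraries. In bulk samples fewer cells of a type and less RNA per cell cannot be told apart, and the part of these markers in the results on RGS genes was not tested.

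A G-protein-coupled receptor loads its G alpha subunit with GTP, and the RGS domain speeds up GTP hydrolysis by alpha subunits of the Gi/o and Gq classes, so that the alpha subunit returns to the beta-gamma pair and signaling to adenylyl cyclase or phospholipase C beta ends. In fat cells, Gi/o-coupled receptors restrain cyclic AMP and lipolysis. The members belong to 4 subfamilies: the small R4 proteins (RGS2, RGS3, RGS4, RGS5 and RGS16), the R7 protein RGS7, which is stable only with the G beta 5 subunit GNB5, the R12 proteins RGS10 and RGS12, and the RZ proteins RGS17 and RGS20, which act on Gz among others.

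The sequences just upstream of the MANE transcripts of RGS4 and RGS2 are shown because these members had the largest LPS differences, in opposite directions. Each line gives the 250 bases before the start of the MANE transcript from RefSeq on GRCh38.p14, 5′ to 3′ on the plus strand, on which both genes lie: chr1:163069111-163069360 for RGS4 and chr1:192808789-192809038 for RGS2. The RGS4 window lies inside the annotated span of its gene, which starts at chr1:163068775, and the RGS2 window lies before its gene. Capitals mark the letters TGACG (the core of a cyclic AMP response element), CCAAT and TATAAA on either strand.
RGS4: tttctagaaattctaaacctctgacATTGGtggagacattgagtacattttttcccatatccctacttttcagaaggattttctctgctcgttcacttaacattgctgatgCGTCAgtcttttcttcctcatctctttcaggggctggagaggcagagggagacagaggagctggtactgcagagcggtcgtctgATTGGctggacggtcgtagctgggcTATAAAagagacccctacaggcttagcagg
RGS2: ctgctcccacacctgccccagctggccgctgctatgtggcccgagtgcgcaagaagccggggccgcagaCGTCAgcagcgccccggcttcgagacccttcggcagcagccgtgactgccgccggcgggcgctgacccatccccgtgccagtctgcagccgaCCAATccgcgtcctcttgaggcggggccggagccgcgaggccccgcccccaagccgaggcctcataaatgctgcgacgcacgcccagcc
The RGS4 stretch held TATAAA on its own strand at 30 to 25 bases before the start, CCAAT on the opposite strand at 225 to 221 and at 55 to 51 bases, and TGACG on the opposite strand at 139 to 135 bases. The RGS2 stretch held TGACG on the opposite strand at 181 to 177 bases and CCAAT on its own strand at 89 to 85 bases, and the letters TATAAA were not in this window. No matches overlapped. Of 34788 promoter windows of 250 bases, 21.2% held TGACG, 32% held CCAAT and 10.8% held TATAAA, so each motif is common and a match is a description, not a binding site.

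RGS4, which acts on Gi/o and Gq alpha subunits, gave the value that chose the family. Its gene lies at chr1:163068775-163076802 (GRCh38, plus strand), and its MANE transcript has 5 exons. RGS4 stood at 23.9, 31.6 and 22.7 CPM in the scramble libraries (1260, 1662 and 1056 counts) and at 1.07, 0.862 and 1.53 CPM in the scramble LPS libraries (42, 26 and 65 counts). It stood at 13.5, 14.3 and 22.2 CPM in linc-ADAIN KD and at 3.68, 1.68 and 4.16 CPM in linc-ADAIN KD LPS. Every library with LPS was below every library without it, and each linc-ADAIN KD LPS library was above each scramble LPS library. With LPS, RGS4 was 22-fold lower in scramble (log2 fold change -4.46, SE 0.213) and 5.29-fold lower in linc-ADAIN KD (-2.40, SE 0.295).

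The linc-ADAIN KD differences of RGS4 had opposite signs without and with LPS. Without LPS, RGS4 averaged 26.1 ± 4.79 CPM in scramble and 16.7 ± 4.81 in linc-ADAIN KD (SD, n = 3 each; log2 fold change -0.64, SE 0.189), and each KD library was below each scramble library. With LPS it averaged 1.15 ± 0.339 CPM in scramble and 3.18 ± 1.31 in linc-ADAIN KD (1.45, SE 0.418), and each KD library was above each scramble library. The linc-ADAIN KD groups are also groups of the LPS comparisons, so these values share libraries with the LPS difference that chose the family and carry no test. The difference between the KD effects with and without LPS was 2.07 on the log2 scale (SE 0.408). Of the KD libraries, replicate 3, with the lowest adipocyte marker sums, had the highest RGS4 in both KD groups.

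**Figure D1:**
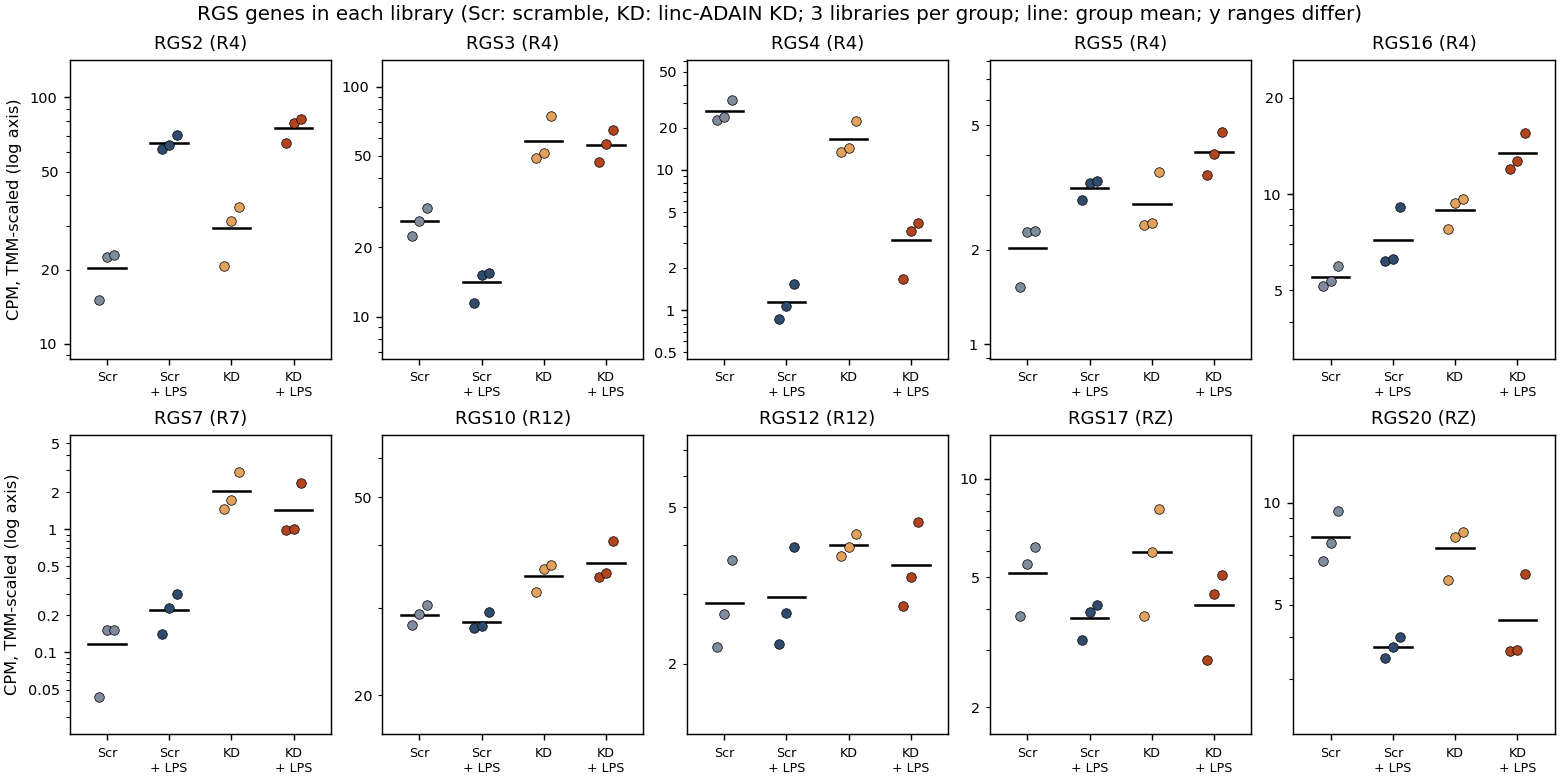
CPM after TMM scaling (log axis, a range of its own for each gene) of the 10 RGS genes in each of 12 libraries, with 3 points per group, a line at the group mean and the subfamily in the title. RGS4 lies between 0.862 and 1.53 CPM in scramble LPS against 22.7 to 31.6 CPM in scramble, RGS2 lies higher in both LPS groups, and RGS3 and RGS7 lie higher in both linc-ADAIN KD groups.

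RGS2, an R4 protein that prefers Gq alpha subunits and whose gene is known to respond early to stimuli, was higher with LPS in both shRNA arms. Its gene lies at chr1:192809039-192812275 (plus strand). RGS2 stood at 15.1, 22.5 and 22.8 CPM in scramble, 61.6, 64.2 and 70.1 CPM in scramble LPS, 31.6, 36 and 20.7 CPM in linc-ADAIN KD and 81.4, 65.3 and 78.5 CPM in linc-ADAIN KD LPS. The groups with and without LPS did not overlap, and RGS2 was 3.26-fold higher with LPS in scramble (1.71, SE 0.141) and 2.56-fold higher in linc-ADAIN KD (1.36, SE 0.159). Between linc-ADAIN KD and scramble the libraries overlapped, and the difference did not pass the test without LPS (0.55, SE 0.197, adjusted p = 0.059 by edgeR's quasi-likelihood test) or with LPS (0.21, SE 0.099, edgeR adjusted p = 0.15). Without LPS the edgeR adjusted p was 0.0082 without linc-ADAIN KD replicate 3, the lowest KD library, and over all alternatives, DESeq2 included, the adjusted p ranged from 0.0082 to 0.23. With LPS it was 0.048 without linc-ADAIN KD LPS replicate 2 and ranged from 0.04 to 0.39, DESeq2 included. The difference between the KD effects with and without LPS was -0.34 (SE 0.235, edgeR adjusted p = 0.66).

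RGS3, an R4 protein active on Gi/o and Gq subunits, had the smallest adjusted p of the 9 tested members for linc-ADAIN KD in both conditions. Its gene lies at chr9:113444731-113597743 (plus strand). RGS3 stood at 26, 29.6 and 22.3 CPM in scramble and at 51.2, 49.1 and 74.2 CPM in linc-ADAIN KD. With LPS it stood at 11.5, 15.2 and 15.5 CPM in scramble and at 47.2, 64.5 and 56.1 CPM in linc-ADAIN KD. Each KD library was above each scramble library of either treatment. RGS3 rose in linc-ADAIN KD 2.25-fold without LPS (1.17, SE 0.158, edgeR adjusted p = 0.00018) and 3.99-fold with LPS (2.00, SE 0.145, edgeR adjusted p = 2.2e-07), and both calls held in every alternative tried. The fold without LPS rested partly on linc-ADAIN KD replicate 3, since without it the log2 fold change was 0.95, under 2-fold. RGS3 was lower with LPS in scramble (-0.87, SE 0.141) and its libraries overlapped in linc-ADAIN KD (-0.05, SE 0.152). The difference between the KD effects with and without LPS was 0.84 (SE 0.232) and did not pass the test (edgeR adjusted p = 0.1). That adjusted p was 0.016 without linc-ADAIN KD replicate 3, 0.023 by DESeq2 and 0.008 with no filter on low counts, and it ranged from 0.008 to 0.29 over all alternatives, DESeq2 included.

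RGS16, an R4 protein induced in many cells by inflammatory signals, rose in linc-ADAIN KD in both conditions. RGS16 (chr1:182598623-182604389, minus strand) stood at 5.17, 5.36 and 5.98 CPM in scramble, 6.17, 9.09 and 6.25 in scramble LPS, 9.35, 7.79 and 9.65 in linc-ADAIN KD and 15.5, 12 and 12.7 in linc-ADAIN KD LPS. The KD and scramble libraries did not overlap within either condition. Its log2 fold change in linc-ADAIN KD was 0.70 without LPS (SE 0.167, edgeR adjusted p = 0.0081) and 0.92 with LPS (SE 0.187, edgeR adjusted p = 0.0023). It was higher with LPS by 0.39 in scramble (SE 0.192) and by 0.59 in linc-ADAIN KD (SE 0.165). The difference between the KD effects with and without LPS was 0.22 (SE 0.255, edgeR adjusted p = 0.85).

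RGS5, an R4 protein best known as a marker of pericytes, was a low gene here. RGS5 (chr1:163111121-163321791, minus strand) ranged from 1.52 to 2.3 CPM in scramble, 2.89 to 3.32 in scramble LPS, 2.4 to 3.55 in linc-ADAIN KD and 3.46 to 4.76 in linc-ADAIN KD LPS. The linc-ADAIN KD difference did not pass the test without LPS (0.46, SE 0.304, edgeR adjusted p = 0.3) or with LPS (0.38, SE 0.258, edgeR adjusted p = 0.31). RGS5 was higher with LPS by 0.64 in scramble (SE 0.266) and by 0.56 in linc-ADAIN KD (SE 0.282), beside pericyte and smooth muscle marker sums that were lower with LPS and in KD. The annotated span of RGS5 overlaps that of NUF2 on the other strand. The strand setting of the counting is not given in the sources used here. Whether transcripts of the 2 genes share sequence was not checked, so it is not known whether they shared reads. RGS2, RGS3, RGS7 and RGS20 also overlap an antisense lncRNA.

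RGS7, the R7 member, best known from neurons, had at most 9 counts in a scramble library and rose in linc-ADAIN KD. RGS7 (chr1:240767636-241357374, minus strand) had 8, 8 and 2 counts in scramble and 9, 9 and 6 in scramble LPS, against 50, 157 and 70 in linc-ADAIN KD and 83, 47 and 28 in linc-ADAIN KD LPS. In CPM it went from 0.116 ± 0.0629 to 2.03 ± 0.792 without LPS and from 0.223 ± 0.079 to 1.44 ± 0.785 with LPS (SD, n = 3 each). Each KD library was above each scramble library, and the difference was 17.1-fold without LPS (4.09, SE 0.593, edgeR adjusted p = 3e-04) and 6.49-fold with LPS (2.70, SE 0.671, edgeR adjusted p = 0.0085). At these counts the size of the fold is loosely set. With LPS the edgeR adjusted p was 0.089 without linc-ADAIN KD LPS replicate 1 and ranged from 0.00078 to 0.089 over all alternatives, DESeq2 included. The libraries with and without LPS overlapped in both shRNA arms (0.93, SE 1.09 in scramble and -0.49, SE 0.463 in linc-ADAIN KD), and the difference between the KD effects was -1.38 (SE 0.841, edgeR adjusted p = 0.59).

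The R7 partner GNB5 and another R7 gene, RGS9, changed as well without LPS. GNB5, the obligate partner of R7 proteins, rose from 11.6 ± 0.323 to 16.3 ± 1.59 CPM in linc-ADAIN KD (0.49, SE 0.12, edgeR adjusted p = 0.0095). RGS9, known from photoreceptors and striatum, fell from 2.14 ± 0.326 to 0.713 ± 0.243 CPM (-1.57, SE 0.398, edgeR adjusted p = 0.012). Without scramble replicate 2 the adjusted p of RGS9 by edgeR was 0.068, and over all its alternatives, DESeq2 included, it ranged from 0.0028 to 0.068. With LPS RGS9 averaged 1.41 ± 0.257 CPM in scramble and 0.737 ± 0.164 in linc-ADAIN KD and did not pass the test. Of 16 RGS partners and other RGS-domain proteins tested with LPS, 0 rose by edgeR, with 1 at an unadjusted p under 0.05 and 0 by DESeq2. GNB5 is on that list.

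RGS10, a small R12 protein known to restrain inflammatory activation of macrophages and microglia, was higher in linc-ADAIN KD by under 2-fold. RGS10 (chr10:119499817-119542719, minus strand) stood at 30.3, 27.7 and 29.1 CPM in scramble, 27.6, 29.4 and 27.3 in scramble LPS, 35.8, 32.2 and 36.5 in linc-ADAIN KD and 34.5, 35.2 and 40.8 in linc-ADAIN KD LPS. Each KD library was above each scramble library. The difference passed the test with LPS (0.40, SE 0.105, edgeR adjusted p = 0.012) and not without it (0.27, SE 0.0938, edgeR adjusted p = 0.055). The effects with and without LPS differed by 0.14 (SE 0.136, edgeR adjusted p = 0.81). With LPS the edgeR adjusted p was 0.055 without scramble LPS replicate 3 and 0.066 without linc-ADAIN KD LPS replicate 3, and it ranged from 0.0034 to 0.066 over all alternatives, DESeq2 included. Without LPS it was 0.029 without linc-ADAIN KD replicate 2 and ranged from 0.011 to 0.19, DESeq2 included. The log2 differences with LPS were -0.04 in scramble (SE 0.0886) and 0.09 in linc-ADAIN KD (SE 0.108). RGS12 (chr4:3293021-3439913, plus strand), a larger R12 scaffold with a further G alpha binding motif, ranged from 2.2 to 4.59 CPM over the 12 libraries. Its KD difference was 0.49 without LPS (SE 0.251, edgeR adjusted p = 0.17) and 0.29 with LPS (SE 0.314, edgeR adjusted p = 0.57).

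The RZ members did not pass the test of linc-ADAIN KD in either condition. RGS20 (chr8:53851795-53959303, plus strand) stood at 6.73, 7.62 and 9.43 CPM in scramble, 3.48, 3.75 and 4.02 in scramble LPS, 7.9, 8.2 and 5.9 in linc-ADAIN KD and 3.65, 3.67 and 6.16 in linc-ADAIN KD LPS. With LPS it was 2.1-fold lower in scramble, with no overlap (-1.07, SE 0.187), and lower by less in linc-ADAIN KD, where replicate 3 of each condition overlapped (-0.70, SE 0.248). With both replicates 3 of the KD groups left out, an alternative chosen after seeing the data, the LPS difference of RGS20 in linc-ADAIN KD was -1.13. Its KD difference was -0.11 without LPS (SE 0.188, edgeR adjusted p = 0.73) and 0.26 with LPS (SE 0.272, edgeR adjusted p = 0.54). RGS17 (chr6:153004459-153131282, minus strand) ranged from 2.8 to 8.07 CPM, with a KD difference of 0.21 without LPS (SE 0.273, edgeR adjusted p = 0.63) and 0.15 with LPS (SE 0.279, edgeR adjusted p = 0.76). With LPS RGS17 was lower by 0.46 in scramble and by 0.52 in linc-ADAIN KD on the log2 scale, with overlap in both. RGS17P1, a processed copy of RGS17 that can share its reads, had 0 to 15 counts per library.

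All 10 members were measured and all passed the filter on low counts. Of the 9 members other than RGS4, 3 rose in linc-ADAIN KD without LPS (RGS3, RGS7 and RGS16) and 0 fell at an adjusted p under 0.05 by edgeR. Of all 16217 genes tested, 12.1% rose and 15.1% fell. RGS3 and RGS7 also changed by at least 2-fold, as did 7.77% of all genes. At an unadjusted p under 0.05 by edgeR 5 of the 9 rose and 0 fell without LPS. DESeq2 called 5 higher and 0 lower, among them RGS2 (DESeq2 adjusted p = 0.023) and RGS10 (DESeq2 adjusted p = 0.047). With LPS, 4 of the 9 rose (RGS3, RGS7, RGS10 and RGS16) and 0 fell, 2 of them at least 2-fold (RGS3 and RGS7), where 12.7% of 15981 genes rose, 14.2% fell and 8.48% changed by at least 2-fold. At an unadjusted p under 0.05 by edgeR 4 of the 9 rose and 0 fell with LPS, as by DESeq2. The median log2 fold change of the 9 members was 0.49 without LPS and 0.38 with LPS, and that of all genes was 0.024 and 0.025. The members were chosen with results known, so these counts are a description.

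The side that the calls of all genes fell on depended on the scaling. With library size only, the median of all genes moved by 0.105 without LPS, and 61.4% of calls were higher in linc-ADAIN KD in place of 44.5%. With LPS the share was 59.2% in place of 47.2%, and among calls for LPS in linc-ADAIN KD it was 35.2% in place of 46.9%. Under that scaling RGS2 (0.65, edgeR adjusted p = 0.027) and RGS10 (0.37, edgeR adjusted p = 0.011) passed the test of linc-ADAIN KD without LPS, and RGS2 passed it with LPS (0.29, edgeR adjusted p = 0.04).

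By the call rule used for all genes, an edgeR adjusted p under 0.05, the LPS comparison in scramble counted 1 member higher (RGS2) and 3 lower (RGS3, RGS4 and RGS20), 3 of them by at least 2-fold (RGS2, RGS4 and RGS20), beside 5.9% of 15920 genes higher, 8.38% lower and 2.68% at least 2-fold changed. In linc-ADAIN KD it counted 2 higher (RGS2 and RGS16) and 1 lower (RGS4), 2 of them by at least 2-fold (RGS2 and RGS4), beside 5.32% of 16169 genes higher, 6.03% lower and 2.25% at least 2-fold changed. These counts are no test of the members, the place of RGS4 in them was fixed by the choice of the family, and nothing is read from them. The difference between the KD effects with and without LPS was past an adjusted p of 0.05 by edgeR for 0 of the 9 members other than RGS4 in either direction, beside 0.943% of 17173 genes in the positive and 0.332% in the negative direction. At an unadjusted p under 0.05 by edgeR 1 of the 9 was positive (RGS3) and 0 negative, and DESeq2 called 1 (RGS3) and 0. For the members other than RGS2, RGS3, RGS4, RGS7, RGS10 and RGS16 that difference lay between -0.20 for RGS12 and 0.38 for RGS20, with edgeR adjusted p from 0.75 to 1.

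**Figure D2:**
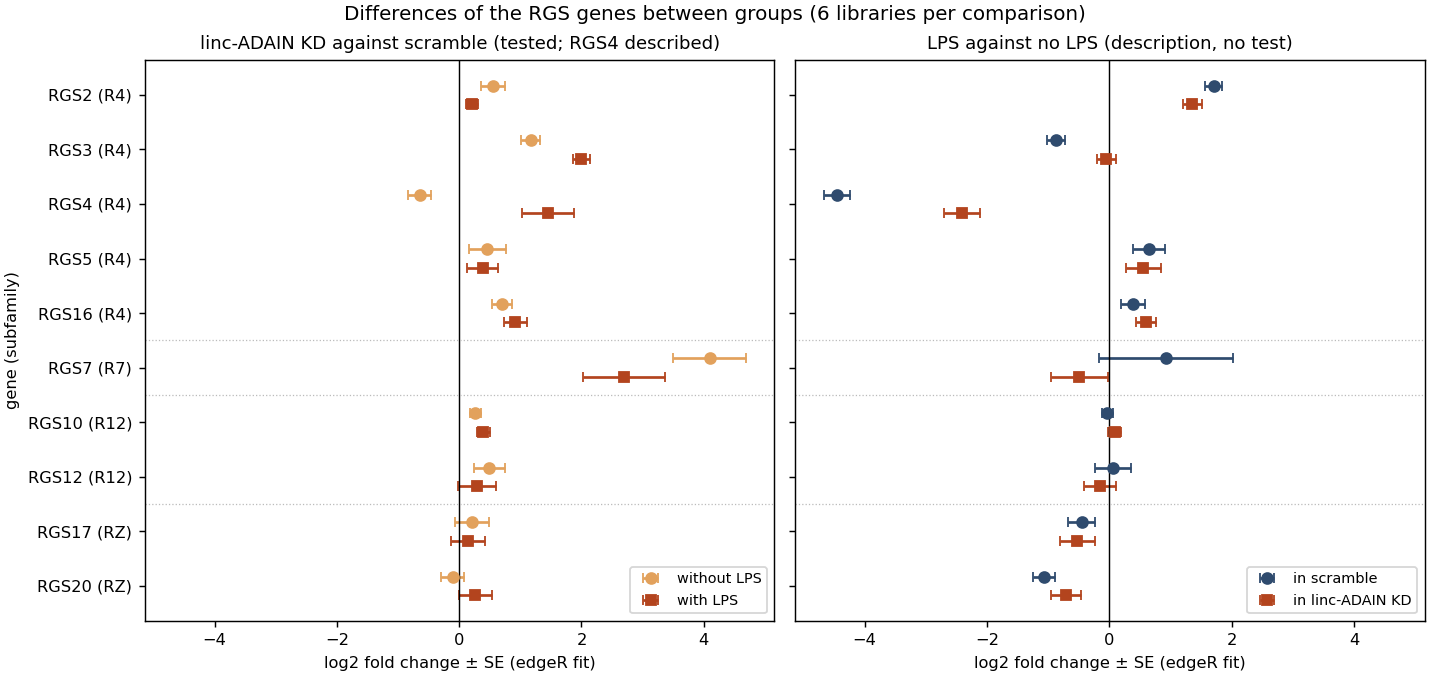
Log2 fold changes of the 10 RGS genes with SE bars from the edgeR fits of 6 libraries each, for linc-ADAIN KD against scramble (left, where RGS4 is a description) and for LPS against no LPS (right, a description). RGS3 lies at 1.17 and 2.00 for linc-ADAIN KD, RGS4 lies on opposite sides of 0 without and with LPS (-0.64 and 1.45), and for LPS RGS4 lies at -4.46 in scramble and -2.40 in linc-ADAIN KD while RGS2 lies at 1.71 and 1.36.

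To compare the genes with each other, CPM was divided by the length of the MANE transcript in kilobases. This is an approximation, since the counts were summed over all transcripts of a gene. On this scale RGS10 led the RGS genes in scramble at 31.4 ± 1.4 CPM per kb, ahead of RGS2 at 15 ± 3.22, RGS4 at 8.74 ± 1.61, RGS3 at 6.3 ± 0.875, RGS20 at 3.74 ± 0.65 and RGS16 at 2.29 ± 0.177 (SD, n = 3 each). The libraries of neighbours among these did not overlap (RGS4 7.62 to 10.6 and RGS3 5.42 to 7.17 CPM per kb were the closest pair at the top). RGS19, no member of the set, lay between RGS20 and RGS16 at 3.08 ± 0.488 and overlapped with RGS20. RGS17 at 0.651 ± 0.154 and RGS12 at 0.599 ± 0.158 overlapped, RGS5 was at 0.359 ± 0.0785, and RGS7 was the lowest member at 0.0453 ± 0.0247.

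With LPS the order changed at the top and for RGS4. In scramble LPS, RGS2 led at 48.4 ± 3.21 CPM per kb, RGS10 followed at 30.5 ± 1.24, and RGS3 (3.42 ± 0.54) and RGS16 (2.98 ± 0.691) overlapped. RGS4 was at 0.387 ± 0.114, among RGS5 (0.557 ± 0.0416) and RGS17 (0.472 ± 0.0593), whose libraries it overlapped. In linc-ADAIN KD, RGS10 led at 37.7 ± 2.52, RGS2 (21.8 ± 5.83) and RGS3 (14.1 ± 3.38) overlapped, and RGS4 was at 5.58 ± 1.61, above RGS16 (3.71 ± 0.414) and RGS20 (3.47 ± 0.591), which overlapped each other. In linc-ADAIN KD LPS, RGS2 led at 55.7 ± 6.38, with RGS10 at 39.9 ± 3.72, RGS3 at 13.6 ± 2.1, RGS16 at 5.56 ± 0.765, RGS20 at 2.12 ± 0.681 and RGS4 at 1.06 ± 0.44.

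As a share of the summed CPM per kb of all 22 genes with an RGS name, RGS4 held 11.7% ± 1.74 in scramble and 0.418% ± 0.118 in scramble LPS, and 5.96% ± 1.69 and 0.85% ± 0.314 in the KD groups. RGS2 held 20% ± 3.6 in scramble, 52.4% ± 2.37 in scramble LPS, 23.4% ± 6.39 in linc-ADAIN KD and 45% ± 3.2 in linc-ADAIN KD LPS. RGS3 held 8.47% ± 1.07 and 3.69% ± 0.445 in scramble without and with LPS, and 15.1% ± 3.52 and 11.1% ± 2.27 in linc-ADAIN KD (SD, n = 3 for each share). The sum itself was 74.4 ± 3.53 CPM per kb in scramble, 92.4 ± 3.76 in scramble LPS, 93.5 ± 0.808 in linc-ADAIN KD and 123 ± 7.62 in linc-ADAIN KD LPS. RGS1, RGS18 and RGS21, known from leukocytes and taste cells, had 0 counts in every library, and a count of 0 allows up to 3 counts per library, for counting error only.

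**Figure D3:**
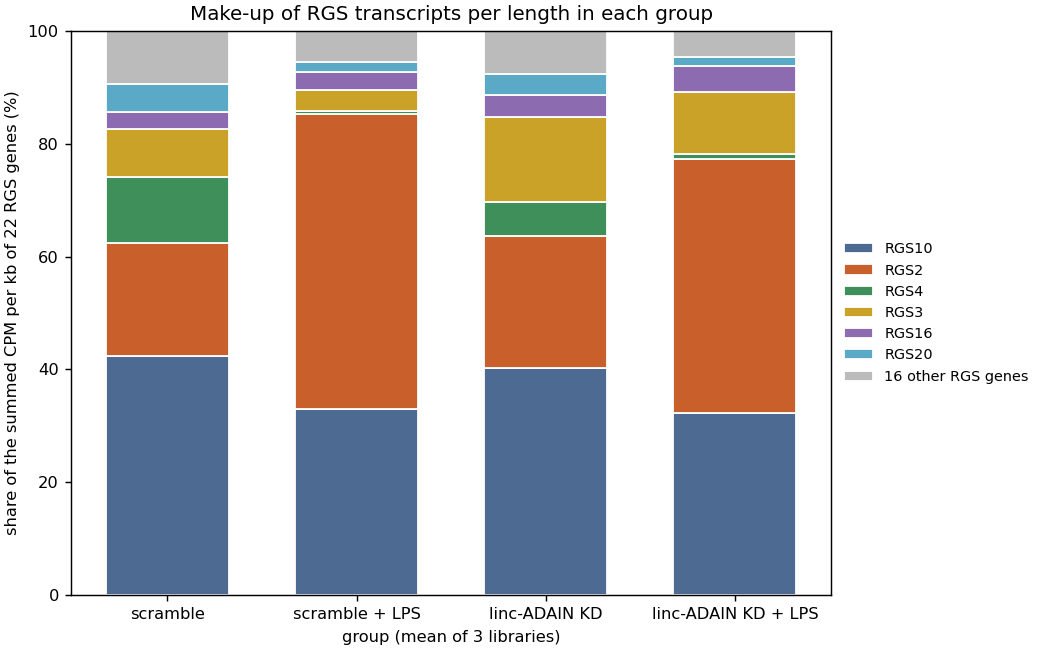
Share (%) of each gene in the summed CPM per kb of 22 RGS genes, as stacked bars of the mean of 3 libraries per group. RGS4 goes from 11.7% in scramble to 0.418% in scramble LPS, RGS2 goes from 20% to 52.4%, and RGS3 holds its largest shares in linc-ADAIN KD (15.1%) and linc-ADAIN KD LPS (11.1%).

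The 3 genes whose pattern was most like that of RGS4 over the 12 libraries were FAM180A, SEMA7A and CARD10. Likeness was the root mean square difference of log2 CPM, each gene centred on its own mean, among 11810 genes averaging 50 counts or more, and it was 0.78, 0.83 and 0.98 for these genes, against 1.85 for RGS4 from a flat line. FAM180A averaged 86.7, 11.6, 50.9 and 18.6 CPM in scramble, scramble LPS, linc-ADAIN KD and linc-ADAIN KD LPS. SEMA7A averaged 40.3, 7.56, 40 and 11.6 CPM, and CARD10 averaged 9.96, 2.29, 10.7 and 2.99 CPM in the same order. Even the nearest of them had a smaller LPS difference than RGS4 in scramble. RGS4 was chosen for the size of that difference, so nothing is read from this.

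The rest of the pathway was read from 9 lists of genes. The share of all genes tested that rose and fell in linc-ADAIN KD, against which each list's count stands, was 12.1% and 15.1% without LPS and 12.7% and 14.2% with LPS. Among the alpha subunits on which RGS proteins act, 8 of 9 were tested without LPS and 0 passed in linc-ADAIN KD by edgeR, with 0 at an unadjusted p under 0.05 and 0 by DESeq2. With LPS, 2 of 8 rose, GNAI1 from 27.3 ± 0.953 to 56.3 ± 4.87 CPM (1.05, SE 0.0992, edgeR adjusted p = 3.1e-06) and GNAI3 from 109 ± 2.74 to 130 ± 1.38 CPM (0.26, SE 0.073, edgeR adjusted p = 0.017). Both encode inhibitory Gi alpha subunits, substrates of RGS3, RGS4 and RGS16. Of the beta and gamma subunits, 2 rose and 3 fell of 11 in each condition. GNB3 rose from 0.771 ± 0.137 to 3.54 ± 0.901 CPM without LPS (2.20, SE 0.332, edgeR adjusted p = 4e-04). GNG11 rose from 133 ± 11.8 to 228 ± 8.14 CPM with LPS (0.79, SE 0.0838, edgeR adjusted p = 9.8e-06). GNG2 fell from 39.7 ± 9.25 to 10.5 ± 2.64 CPM without LPS (-1.92, SE 0.196, edgeR adjusted p = 2e-05) and from 36.7 ± 3.39 to 8.24 ± 1.28 CPM with LPS (-2.15, SE 0.138, edgeR adjusted p = 7e-08).

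Of the receptors that couple to Gi/o or Gq, the signals that RGS proteins shorten, 3 rose and 9 fell of 29 tested without LPS (all genes 12.1% and 15.1%), and 3 rose and 9 fell of 26 with LPS (all genes 12.7% and 14.2%). PTGER3, the Gi-coupled prostaglandin E2 receptor that restrains lipolysis, fell in linc-ADAIN KD from 58.6 ± 10.8 to 4.34 ± 1.41 CPM without LPS (-3.75, SE 0.215, edgeR adjusted p = 2.2e-07) and from 70.2 ± 6.01 to 2.49 ± 0.946 CPM with LPS (-4.80, SE 0.197, edgeR adjusted p = 1.9e-09). HTR2A, a Gq-coupled serotonin receptor, fell from 10.5 ± 1.83 to 0.85 ± 0.338 CPM without LPS (-3.59, SE 0.284, edgeR adjusted p = 2.5e-06). ADRA2A, the Gi-coupled alpha-2A adrenergic receptor, fell with LPS from 9.7 ± 1.21 to 1.22 ± 0.454 CPM (-2.95, SE 0.283, edgeR adjusted p = 3.6e-06). These falls stood beside the lower adipocyte marker sums of the KD groups, whose part was not tested. Of the Gs-coupled receptors, 1 rose and 2 fell of 12 without LPS, and 1 rose and 3 fell of 12 with LPS.

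Of the adenylyl cyclases and phospholipase C beta enzymes, 1 rose and 4 fell of 13 without LPS, and 2 rose and 3 fell of 13 with LPS. PLCB4 rose from 2.62 ± 0.177 to 9.73 ± 3.77 CPM without LPS (1.90, SE 0.271, edgeR adjusted p = 0.00027), and ADCY6 fell from 37.9 ± 2.58 to 21.1 ± 2.86 CPM (-0.84, SE 0.112, edgeR adjusted p = 0.00016). Among the phosphodiesterases of cyclic AMP and subunits of its kinase, 3 rose and 3 fell of 17 without LPS, and 4 rose and 8 fell of 17 with LPS. PDE4B, a phosphodiesterase known to be induced by LPS in immune cells, rose from 3.52 ± 0.497 to 30.1 ± 2.02 CPM without LPS (3.10, SE 0.139, edgeR adjusted p = 7.2e-08) and from 5.26 ± 1.14 to 85.3 ± 10.2 CPM with LPS (4.03, SE 0.156, edgeR adjusted p = 1.3e-09). PRKAR2B, a subunit of the kinase, fell from 45.1 ± 11.2 to 17 ± 9.36 CPM without LPS (-1.41, SE 0.337, edgeR adjusted p = 0.0082). With LPS PRKAR2B fell from 54 ± 5.84 to 14.5 ± 6.73 CPM (-1.88, SE 0.24, edgeR adjusted p = 5.1e-05). Of the RGS partners and other proteins with an RGS domain, 2 rose and 4 fell of 18 without LPS and 1 fell of 16 with LPS. AXIN2, a Wnt target and scaffold with an RGS domain, fell from 5.07 ± 0.675 to 1.25 ± 0.546 CPM without LPS (-2.03, SE 0.321, edgeR adjusted p = 0.00057). Of the other RGS genes, RGS9 fell without LPS, and with LPS 0 of 6 passed by edgeR, with 0 at an unadjusted p under 0.05 and 0 by DESeq2. Of the Gs and G12/13 alpha subunits 2 of 4 fell without LPS, GNA13 (-0.24, edgeR adjusted p = 0.049) and GNA12 (-0.20, edgeR adjusted p = 0.05). Both were at the edge of the threshold, and they missed it in 9 and 10 of 13 alternatives. With LPS 1 of 4 fell (GNA12, -0.43, edgeR adjusted p = 0.00081).

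With LPS, the Gi/o- and Gq-coupled receptors had 7 higher and 2 lower of 27 in scramble and 7 higher and 2 lower of 29 in linc-ADAIN KD at an adjusted p under 0.05. Of all genes tested, 5.9% were higher and 8.38% lower in scramble, and 5.32% were higher and 6.03% lower in linc-ADAIN KD. BDKRB2, the bradykinin B2 receptor, averaged 10 ± 0.173 CPM in scramble and 41.5 ± 6.47 CPM in scramble LPS. EDNRA, the endothelin A receptor, averaged 11.8 ± 1.57 CPM in linc-ADAIN KD and 34.6 ± 4.79 CPM in linc-ADAIN KD LPS. GNAI1 was lower with LPS in scramble (37.7 ± 2.03 and 27.3 ± 0.953 CPM) and higher with LPS in linc-ADAIN KD (42.9 ± 4.63 and 56.3 ± 4.87 CPM). The log2 difference of GNAI1 in linc-ADAIN KD (0.40, SE 0.106) was less settled. Over all alternatives it ranged from 0.25 to 0.46, with adjusted p from 0.0051 to 0.3, DESeq2 included.

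**Figure D4:**
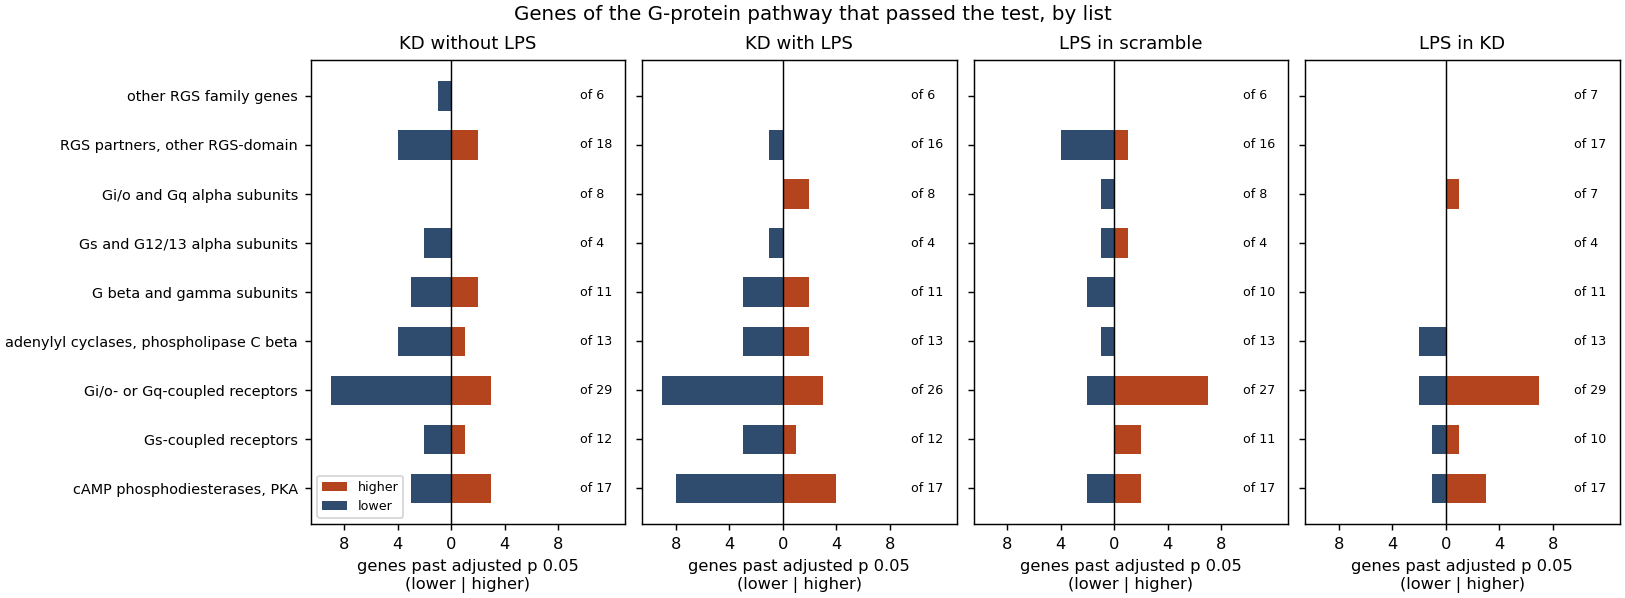
Genes past an adjusted p of 0.05 in each of 9 lists of the G-protein pathway, counted to the right where higher and to the left where lower, with the number tested at the right edge of each panel, for the 4 comparisons. The list of Gi/o- or Gq-coupled receptors has 9 lower genes in both linc-ADAIN KD panels and 7 higher genes in both LPS panels.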

How the data were processed

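RNA-seq libraries of day 14 ASC52telo adipocytes were compared in 4 groups of 3, assigned from the labels. The authors deposited estimated counts (kallisto 0.44.0 on GRCh38, per the submitters' processing notes) as whole numbers per gene name, not normalized for depth or length. DESeq2 1.32.0 is the authors' own test. The annotation release and the tool that summed transcripts are not given in the sources used here. Between 0.235% and 0.306% of counts lay on a nameless row, which was dropped.

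Rounded counts were analysed in R 4.3.3, keeping genes whose counts summed to 10 or more in the libraries fitted. TMM scaling and the quasi-likelihood F test of edgeR 4.0.16 were used, and p was adjusted over all genes by Benjamini-Hochberg. SE is the size of the log2 fold change divided by the square root of F. Calls used an adjusted p under 0.05, with at least 2-fold where stated. Each comparison used its 6 libraries, and the difference of KD effects all 12. Alternatives were DESeq2 1.42.0, other scalings and filters, a replicate block, all 12 libraries in 1 fit and each library left out. The steps were tested on simulated data.

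All 10 members are named, RGS4 with no test since its values chose the family. From each list, up to 3 genes with the largest change are eligible for naming, among those past the test averaging 50 counts or more and with groups that do not overlap. The members and lists were chosen with earlier results of these data known. Positions and lengths come from GENCODE release 44. Depth was 28.4 to 53.8 M counts (M is 1e6), which limits RGS7 most.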

Additional observations from a re-analysis of the deposited data

Results flagged for a closer look

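RGS4 drew attention because each linc-ADAIN KD library lay below each scramble library without LPS and above each with LPS. The closest libraries of KD and scramble stood at 22.2 and 22.7 CPM without LPS and at 1.68 and 1.53 CPM with LPS. With 1 library left out, the KD difference of RGS4 ranged from -0.91 to -0.48 without LPS and from 1.21 to 1.75 with LPS. The KD effect of RGS4 with LPS minus that without LPS was 2.0653 on the log2 scale, and since its LPS values chose the family, this difference was not tested. For 4 genes of the pathway lists the same difference passed a test (edgeR, all 12 libraries). They were 1 of 9 Gi/o and Gq alpha subunits, 2 of 30 Gi/o- or Gq-coupled receptors and 1 of 17 cyclic AMP phosphodiesterases and kinase subunits. Of all 17173 genes tested, 0.943% passed in the positive and 0.332% in the negative direction. The difference was 0.8708 for GNAI1 (SE 0.135, edgeR adjusted p = 0.0024), which passed in all 19 alternatives. It was -1.7636 for ADRA2A (SE 0.359, edgeR adjusted p = 0.02), whose adjusted p ranged from 0.00045 to 0.063 over all alternatives, DESeq2 included, and was by edgeR 0.063 without scramble replicate 2, 0.055 without linc-ADAIN KD replicate 1 and 0.051 without linc-ADAIN KD LPS replicate 3. It was 0.9375 for PDE4B (SE 0.205, edgeR adjusted p = 0.03), which missed the threshold in 7 of 19 alternatives, with adjusted p from 0.0018 to 0.099, DESeq2 included. It was -0.8349 for BDKRB2 (SE 0.199, edgeR adjusted p = 0.047), which missed it in 11 of 19, with adjusted p from 0.0073 to 0.13, DESeq2 included. GNAI1, ADRA2A, PDE4B and BDKRB2 were named because they were the genes of the pathway lists that passed the test for this difference.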

How the results depend on the processing

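Of 27 tested results on the 9 members other than RGS4, 13 kept their direction and their side of the threshold in every alternative run, 2 lost the call in at least 1, 4 gained it in at least 1 and 8 changed sign in at least 1, the cause of which was not tested. Of 23 described results (LPS, and RGS4 throughout), 2 moved by more than the spread between libraries (RGS5 and RGS20 in linc-ADAIN KD with both KD replicates 3 left out) and 0 of those past the threshold changed sign. In 2 alternatives RGS7 got no value for LPS in scramble.

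The difference of KD effects gave 219 genes, 475 by DESeq2, 431 with no filter on low counts, 139 with both KD replicates 3 left out (chosen after seeing the data) and 92 to 243 with 1 library left out, at 92 without scramble replicate 2, 116 without linc-ADAIN KD LPS replicate 3, 131 without linc-ADAIN KD replicate 1 and 136 without linc-ADAIN KD LPS replicate 2. Of the members other than RGS4, RGS3 passed the test for it in those 3 alternatives and without linc-ADAIN KD replicate 3, which makes 1 in place of 0, and the count was 0 to 1 with 1 library left out. With both KD replicates 3 left out, it was 0.2478 for RGS5 and -0.0424 for RGS20. For linc-ADAIN KD against scramble with 1 library left out, 1 to 2 of them passed both thresholds without LPS and 1 to 3 with LPS. Without LPS the count was 1 without linc-ADAIN KD replicate 3. With LPS it was 1 without linc-ADAIN KD LPS replicate 1 and 3 without scramble LPS replicate 2.

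With 1 library left out, KD differences without LPS ranged from -0.2131 to 0.0239 for RGS20 and from -0.0754 to 0.4465 for RGS17. With LPS they ranged from -0.0279 to 0.3951 for RGS20 and from -0.0259 to 0.3557 for RGS17. The difference of KD effects ranged from -0.202 to 0.1225 for RGS5, -0.4284 to 0.0571 for RGS12 and -0.3088 to 0.2123 for RGS17.

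Libraries with the same replicate number did not deviate together in each pair (r from -0.1 to 0.246). With the replicate block, 1161 and 1302 genes changed in linc-ADAIN KD without and with LPS, 473 and 456 with LPS in scramble and KD, and 231 for the difference. Members called, RGS4 left out except for LPS, were 2, 2, 3, 2 and 0, as without it.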
